A study of Mus musculus with 12 samples.

Results

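The p-p53 Terc-/- leukaemia stem cells were 3 arrays, replicates 2, 3 and 6, chosen by their labelled phosphorylation status, p-p53+ (Ser15), out of 6 Terc-/- arrays and 12 arrays in all. They were compared with the 6 WT arrays. Terc-/- replicates 2 and 6 were near-identical, with a correlation of 0.996 over probes, and so were WT replicates 5 and 6, again at 0.996. The other array pairs, of 66 in all, reached at most 0.990. Each near-identical pair was averaged and counted as 1 sample, which left 2 p-p53 samples and 5 WT samples. The p-p53 samples are called replicate 3 and replicates 2+6 below.

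Both groups were bone marrow cells of C57BL/6J mice bearing acute myeloid leukaemia driven by MLL-AF9, a fusion oncogene tagged here with green fluorescent protein. Recipients aged 6 to 8 weeks were irradiated with 5.5 Gy and received 10000 MLL-AF9-expressing progenitors (lineage-negative, Kit-positive, Sca1-positive), either WT or from Terc-/- mice of generation 3 (G3). When leukaemia appeared in a recipient, cells positive for the fluorescent fusion, Kit and Fcgr and negative for lineage markers were sorted and arrayed. The labels name no phosphorylation status for the WT samples, and how the status was measured is not given in the sources used here. The 2 p-Foxo3a samples (replicates 1 and 4, labelled p-foxo3a+ at Ser253) share the Terc-/- genotype and shared the fit, and Terc-/- replicate 5, with no status given, was left out of it. The labels do not say whether each sample is another animal, and the p-values then rest on a spread among samples that may be technical.

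Terc encodes the RNA template of telomerase, and telomeres shorten over successive generations of mice without it. Short telomeres activate the DNA damage kinases ATM and ATR, which phosphorylate the transcription factor p53 at its amino terminus. Serine 15, in human numbering, is the best known of these sites, and p53 freed from its inhibitor Mdm2 can induce genes of cell cycle arrest, apoptosis and growth restraint. The comparison asks how leukaemia stem cells with this mark differ in gene expression from WT ones.

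Values are log2 units of 11864 genes, 1 probe each, and 6.57 was taken as the background limit. Each array had between 19199 and 19385 probes above it. The annotation used here gives no probe to Terc or Trp53, and Tert was too dim to be kept. Neither the knockout nor p53 itself was therefore checked by these values. Fcgr3 and Ly6a likewise had no probe. Kit, the receptor used in the sort, lay between 12.29 and 13.09 in all 7 samples. Mpo, Elane, Prtn3 and Ctsg, proteases and enzymes of the primary granules of myeloid progenitors, lay between 14.88 and 15.89 in the same samples. Markers of T and NK cells (8 of 24 measured) summed to between 5754 and 8401 linear units in WT and to 7007 and 8593 in p-p53 samples. Markers of B cells (8 of 19 measured) summed to between 1819 and 3131 in WT and to 2720 and 2510 in p-p53 samples, and Cd3d and Ms4a1, which define those lineages, lay at 6.89 or less in every WT and p-p53 sample. Markers of eosinophils (6 of 10 measured) summed to between 838.3 and 44880 in WT and to 698.5 and 1917 in p-p53 samples. Those of dendritic cells (6 of 18 measured) summed to between 2710 and 10990 in WT and to 19380 and 7989 in p-p53 samples. In replicates 2+6, Tcf4 among them read 14.15. Mast cell and basophil markers reached 22230 in replicates 2+6, against 11030 to 21080 in WT. Sums of erythroid, megakaryocyte and stromal markers lay within the WT range in both p-p53 samples.

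No gene passed the test between p-p53 and WT samples (limma, Benjamini-Hochberg adjusted p under 0.05): 0% of 11864 genes, and the smallest adjusted p rounded to 1. At an unadjusted p under 0.05, 151 genes were higher (1.27% of all tested) and 160 were lower (1.35%) in p-p53 samples. Both p-p53 samples lay above all 5 WT samples at 476 genes (4.01%) and below all of them at 515 genes (4.34%). The 2 p-p53 samples were on opposite sides of the WT range at 815 genes. They differed from each other more than 2-fold at 645 genes (5.44%), against 162 to 597 genes, median 278.5, over the 10 pairs of WT samples. Without replicate 3, 15 genes passed for replicates 2+6 alone, and without replicates 2+6, 1 gene, Pcdh7, passed for replicate 3 alone. In these fits the lone sample is assumed to vary like the other groups.

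The clearest difference shared by both p-p53 samples was Rap1gap, which encodes a protein that switches off the small GTPase Rap1 by speeding its GTP hydrolysis. Rap1gap read 9.05, 9.13, 8.29, 9.51 and 8.81 in WT samples and 6.28 and 6.35 in p-p53 samples. Both p-p53 values are below the background limit, and no WT sample is. The WT level is therefore at least 5.23-fold that of the p-p53 samples, and the fitted difference was -2.65 ± 0.38 (SE) with an adjusted p of 1. Rap1gap was the 1 gene of 11864 at which both p-p53 samples lay over 2-fold below every WT sample, and no gene lay over 2-fold above in both. Of 3 kept Rap1gap probes only this one was bright. The others read 6.67 or less and 6.56 or less in p-p53 samples against 6.63 to 6.87 and 6.40 to 6.64 in WT, and differed by -0.14 and 0.0041.

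Rap1gap is not low in all Terc-/- samples. It read 10.10 and 8.77 in the p-Foxo3a samples and 9.06 in Terc-/- replicate 5, within or above the WT range. Against p-Foxo3a the p-p53 difference of Rap1gap was -3.12 ± 0.46 (SE), with an adjusted p of 0.594. Of 46 measured regulators of Rap1 and Ras, Rap1gap included, 25 were higher and 21 lower. Of the 46, 2 were higher and 1, Rap1gap itself, was lower at an unadjusted p under 0.05, or 6.52%, beside 2.62% of all genes. The higher ones were Rapgef2 and Rasgrp2, exchange factors that load Rap1 with GTP. Rapgef2 read 9.29 and 9.26 in p-p53 samples against 8.75 to 9.10 in WT, a difference of 0.31 ± 0.12 (SE). Rasgrp2 read 9.98 and 10.25 against 9.09 to 9.87, a difference of 0.60 ± 0.25 (SE). Neither p-p53 sample overlapped WT for these genes, at adjusted p of 1. Rasgrp2 lies on chromosome 19, where bright genes had a median of 0.16 in each p-p53 sample.

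The 24 genes of smallest p were 9 higher and 15 lower in p-p53 samples, with differences of between 0.34 and 2.65 in size, and these values chose them. In each of the 24, both p-p53 samples lay outside the range of the WT samples. Them7, a member of the thioesterase superfamily, was the largest higher one, at 8.27 and 9.01 against 7.10, 7.29, 7.25, 7.12 and 7.55 in WT, a difference of 1.38 ± 0.23 (SE). Its second probe was not above background. Lrig3, a membrane protein with leucine-rich repeats, read 6.68 and 6.25 in p-p53 samples and 8.35, 7.79, 8.65, 8.47 and 7.41 in WT, a difference of -1.67 ± 0.40 (SE). Myom1, a structural protein of the sarcomere, read 6.93 and 6.95 against 7.39 to 8.45. Its other kept probe differed by -0.32.

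**Figure D1:**
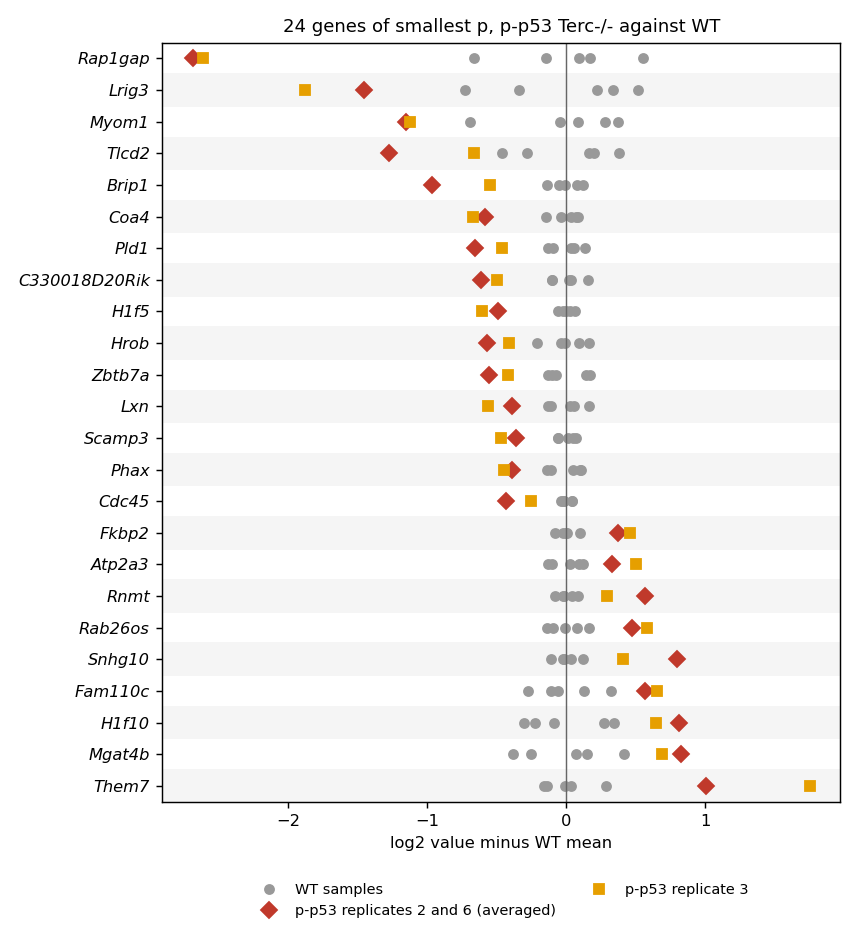
Log2 value minus the WT mean (x axis) of the 24 genes of smallest p, p-p53 against WT, with 1 row per gene; grey circles are the 5 WT samples, the red diamond is the average of p-p53 replicates 2 and 6 and the orange square is p-p53 replicate 3. Both p-p53 samples lie outside the WT circles in every row, since p chose these genes, and Rap1gap is furthest from WT at -2.65.

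Among the 24 were genes of DNA replication and repair. All genes named in this paragraph lay outside the WT range, on the same side, in both p-Foxo3a samples too. Brip1 read 9.18 and 9.17 there, and the values of Cdc45 and H1f10 are given further below. Brip1, the helicase partner of Brca1, read 9.39, 9.60, 9.52, 9.47 and 9.65 in WT samples and 8.56 and 8.98 in p-p53 samples, a difference of -0.76 ± 0.13 (SE). Both p-p53 samples were below every WT sample. Cdc45, a subunit of the replicative helicase, read between 10.93 and 11.01 in WT and 10.54 and 10.72 in p-p53 samples, a difference of -0.34 ± 0.09 (SE), while its other, dim kept probe differed by -0.089. Hrob, which loads the MCM8-MCM9 helicase during recombination, was lower by 0.49 in the same fit and H1f5, a linker histone, by 0.55. H1f10, another linker histone, went the other way, with 7.74 and 7.57 in p-p53 samples against 6.62 to 7.27 in WT. Coa4, an assembly factor of cytochrome c oxidase, read 10.38 and 10.29 against 10.82 to 11.05, though its other kept probe differed by only -0.06. Zbtb7a, a transcriptional repressor of blood lineages, read 9.66 and 9.80 against 10.09 to 10.39. Atp2a3, the calcium pump of the endoplasmic reticulum in blood cells, read 13.99 and 14.17 against 13.53 to 13.78, and its 2 other kept probes differed by 0.35 and 0.37.

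Among all genes where both p-p53 samples lay outside the WT range, the 12 of largest difference included, besides Rap1gap, Lrig3 and Them7, the following. Gp9, a subunit of the platelet von Willebrand factor receptor, read 10.63 and 8.71 against 7.68 to 8.50 in WT. Ms4a3, a membrane protein of granulocyte and monocyte progenitors, read 15.05 and 14.49 against 11.09 to 14.35, and WT replicate 4 alone was below 13.57. Mpeg1, a pore-forming protein of macrophages, read 11.64 and 11.46 against 9.84 to 10.98. Lgals3bp, a secreted glycoprotein induced by interferon, read 9.88 and 9.49 against 7.19 to 9.09. Among the lower genes, Olfm4, a protein of neutrophil-specific granules, read 10.64 and 10.97 against 11.24 to 13.58. Cenpv, a centromere-associated protein, read 9.85 and 8.71 against 10.05 to 11.68. Fbp1, an enzyme of gluconeogenesis, and Timp2, an inhibitor of metalloproteinases, were higher by 1.32 and 1.25, and Dbndd2 was lower, with a difference of -1.29. Other kept probes of Mpeg1 and Dbndd2 differed by 0.36 and -0.34.

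The p53 pathway itself showed no common shift. Of 60 measured p53 target genes (of 68 listed), 30 were higher and 30 lower in p-p53 than in WT samples, with a median difference of 0.0023, beside -0.01 over all genes. At an unadjusted p under 0.05, 1 was higher and none was lower, or 1.67%, beside 2.62% of all genes. Both p-p53 samples lay above all WT samples in 3 targets and below them in 3, or 5% each way, beside the 4.01% and 4.34% of all genes. The median over the targets was -0.03 in replicates 2+6 and -0.01 in replicate 3, and the WT samples, each set against the other WT samples, spanned -0.07 to 0.07.

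Phlda3, a p53 target that restrains Akt, was the 1 target with an unadjusted p under 0.05. Phlda3 read 6.51, 6.42, 6.75, 6.37 and 6.68 in WT samples and 7.85 and 6.85 in p-p53 samples, a difference of 0.80 ± 0.24 (SE), adjusted p of 1. The WT range was exceeded by both, replicates 2+6 by far more than replicate 3. The other Phlda3 probe read 7.55 and 6.75 against 6.43 to 6.68. Cdkn1a, the p53-induced inhibitor of cyclin-dependent kinases, read 7.88 and 8.38 in p-p53 samples and between 8.00 and 10.76 in WT. It was not higher in either p-p53 sample than the WT mean of 8.88. Mdm2, the ubiquitin ligase that p53 induces against itself, read 11.23 and 11.79 against 11.02 to 11.70. Bbc3, the pro-apoptotic protein Puma, read 8.43 and 9.46 against 8.34 to 9.31. Ccng1 and Zmat3, further p53 targets, lay within the WT range in both p-p53 samples. Ppm1d, the phosphatase that reverses p53 activation, read 10.32 and 10.34 against 10.38 to 10.63.

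**Figure D2:**
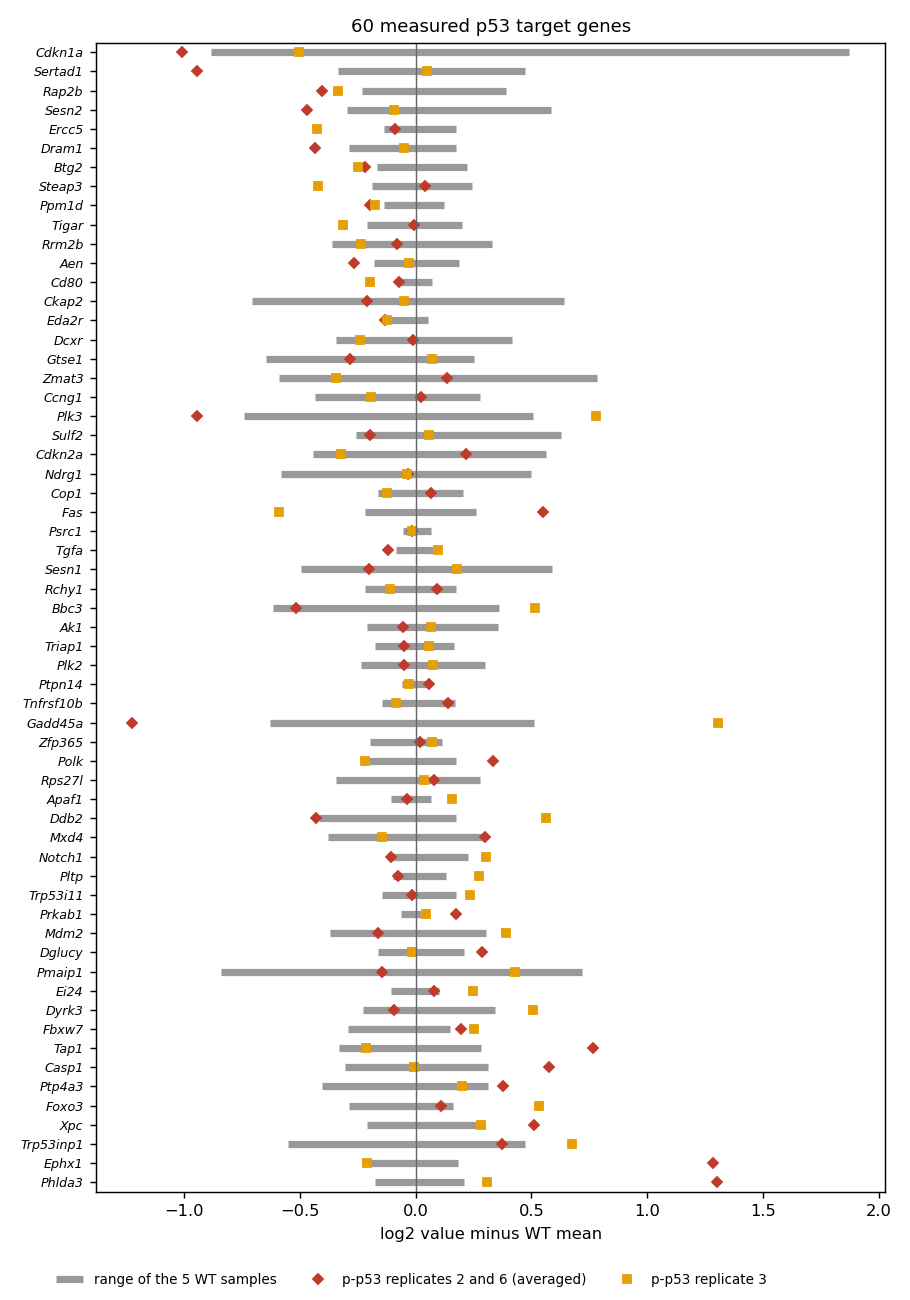
Log2 value minus the WT mean (x axis) of the 60 measured p53 target genes, with 1 row per gene in the order of the mean p-p53 difference; the grey bar is the range of the 5 WT samples, the red diamond p-p53 replicates 2 and 6 averaged and the orange square replicate 3. Phlda3 is last, at 0.80, and the 2 p-p53 samples lie on opposite sides of the WT range in 7 rows.

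In 7 of the 60 targets (11.7%) the p-p53 samples were on opposite sides of the WT range, beside 6.87% of all genes. Gadd45a, a stress protein of growth arrest chosen here after its values were seen, read 9.27 in replicates 2+6 and 11.80 in replicate 3, against 9.87 to 11.01 in WT. Fas, the death receptor, also chosen so, went the opposite way, at 9.33 and 8.19 against 8.56 to 9.04. Its other kept probes read 7.79 and 7.22, and 7.31 and 6.84. Ephx1, an epoxide hydrolase chosen so, read 8.02 in replicates 2+6 and 6.52 in replicate 3, against 6.52 to 6.92.

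Of 36 measured genes that act on p53 (of 42 listed), 13 were higher and 23 lower, with a median of -0.06. The list median was -0.14 in replicates 2+6, below the WT span of -0.11 to 0.06, and 0.05 in replicate 3, within it, so that its sign turns with the sample left out. Chek2, a checkpoint kinase that phosphorylates p53, read 8.83 and 8.65 in p-p53 samples and 9.03 to 9.32 in WT, a difference of -0.42 ± 0.16 (SE), and its other kept probe differed by -0.20. Chek2 was below the WT range in the p-Foxo3a samples (8.25 and 8.81) and Terc-/- replicate 5 (8.73) too. Pml, the scaffold of nuclear bodies in which p53 is modified, read 11.49 and 11.31 against 10.83 to 11.17, a difference of 0.38 ± 0.16 (SE). Other kept Pml probes differed by between -0.086 and 0.16. Atm, which phosphorylates serine 15, read 10.38 and 10.15, within the WT range of 10.08 to 10.63. Chek1 and Mdm4, a kinase and an inhibitor in the same pathway, were also within it.

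Of 32 measured telomere maintenance genes (of 37 listed), 19 were higher and 13 lower, with a median of 0.03. Smg6, a nuclease of RNA decay that also associates with telomerase, read 8.65 and 8.33 against 7.79 to 8.17, a difference of 0.50 ± 0.16 (SE). Pinx1, an inhibitor of telomerase, read 8.59 and 8.25 against 8.61 to 9.34, and its other kept probe differed by 0.057. The shelterin genes Terf1 and Terf2, whose products bind telomeric repeats, read 6.29 and 6.57 and 9.60 and 9.76. Terf1 lay within its WT range in both p-p53 samples. It was above the background limit in only 1 WT sample and 1 p-p53 sample, so no change could be read from it. Terf2 lay below its lowest WT value of 9.69 in replicates 2+6.

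Interferon response genes were higher in most members but by small amounts, and more so in 1 of the p-p53 samples. Of 57 measured (of 73 listed), 51 were higher and 6 lower, with a median difference of 0.14 beside -0.01 over all genes. At an unadjusted p under 0.05, 3 were higher (Oasl2, Ddx58 and Pml) and none was lower, or 5.26%, beside 2.62% of all genes. None passed the adjusted threshold. Both p-p53 samples lay above all WT samples in 5 members, or 8.77%, beside 4.01% of all genes. The list median was 0.27 in replicates 2+6, above the WT span of -0.22 to 0.20, and 0.06 in replicate 3, within it. It was 0.38 and -0.03 in p-Foxo3a replicates 1 and 4 and 0.44 in Terc-/- replicate 5, so a rise is not particular to p-p53 samples. Replicates 2+6 lay above all WT samples in 27 of the 57, beside 17.8% of all genes, and replicate 3 in 8, beside 15.3%. Replicates 2+6 lay below all WT samples in 1 of them, beside 17.6% of all genes, and replicate 3 in 7, beside 19%. Summed markers of monocytes and macrophages (23 of 29 measured) were also highest in replicates 2+6, at 64260 linear units against 24000 to 34870 in WT and 28000 in replicate 3. Of that sum, 46900 units came from Ccl9 and F13a1. Without them the markers summed to 17360 in replicates 2+6 and 20080 in replicate 3, within the WT range of 9694 to 24030. In replicates 2+6, 14 of the 23 markers were higher than the WT mean and 9 lower, and 3 were not above background in either p-p53 sample. The part of monocyte-like RNA in the interferon values was not tested, and in such bulk samples fewer cells of a type and less RNA per cell cannot be told apart.

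Ddx58, the RNA sensor RIG-I, was higher in both p-p53 samples, at 7.96 and 7.86 against 7.24, 7.42, 7.59, 7.38 and 7.53 in WT, a difference of 0.48 ± 0.20 (SE). Helz2, an interferon-induced helicase, read 8.23 and 8.15 against 7.87 to 8.09. Oasl2, a protein related to oligoadenylate synthetases, read 7.95 in replicates 2+6 and 6.87 in replicate 3, against 6.37 to 6.90. It is above WT in the first sample and within the WT range in the second. The same held for Rsad2, the antiviral enzyme viperin, at 9.23 and 6.70 against 6.47 to 7.22, and for Gbp2, a guanylate-binding protein, at 9.02 and 7.44 against 7.09 to 7.73. Usp18, which removes the ubiquitin-like Isg15 from proteins, read 8.47 and 6.66 against 6.92 to 7.46, and Irf7, the transcription factor that amplifies the response, 7.69 and 6.41 against 6.51 to 6.80. Rsad2, Gbp2, Usp18, Irf7 and Helz2, and Ifit3 below, were chosen after their values were seen.

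Interferon-induced genes carry the interferon-stimulated response element, searched here as GAAANNGAAA on both strands. The promoter windows of Ddx58, Rsad2 and Ifit3, the last an interferon-induced RNA-binding protein, are shown because these genes were higher in both p-p53 samples or in replicates 2+6 alone (Ifit3 read 7.70 and 6.86 against 6.70 to 6.92). Each runs from 250 bases before to 50 after the gene start in RefSeq, on the gene's strand (GRCm38.p6), with the matches in capitals. In each the match is on the opposite strand and reads TTTCNNTTTC.
Ddx58 (chr4:40239776-40240075, minus strand): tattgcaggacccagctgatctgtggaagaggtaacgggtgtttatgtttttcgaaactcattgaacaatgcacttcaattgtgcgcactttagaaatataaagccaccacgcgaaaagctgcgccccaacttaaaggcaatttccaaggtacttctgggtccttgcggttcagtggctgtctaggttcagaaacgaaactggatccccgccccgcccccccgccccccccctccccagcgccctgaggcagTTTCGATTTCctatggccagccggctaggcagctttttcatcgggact
Rsad2 (chr12:26456403-26456702, minus strand): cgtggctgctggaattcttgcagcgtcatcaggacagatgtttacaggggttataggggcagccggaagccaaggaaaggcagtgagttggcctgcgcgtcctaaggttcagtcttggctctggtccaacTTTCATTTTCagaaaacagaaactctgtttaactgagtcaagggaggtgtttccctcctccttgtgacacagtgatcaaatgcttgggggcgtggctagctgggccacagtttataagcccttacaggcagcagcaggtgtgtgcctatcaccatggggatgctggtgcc
Ifit3 (chr19:34583279-34583578, plus strand): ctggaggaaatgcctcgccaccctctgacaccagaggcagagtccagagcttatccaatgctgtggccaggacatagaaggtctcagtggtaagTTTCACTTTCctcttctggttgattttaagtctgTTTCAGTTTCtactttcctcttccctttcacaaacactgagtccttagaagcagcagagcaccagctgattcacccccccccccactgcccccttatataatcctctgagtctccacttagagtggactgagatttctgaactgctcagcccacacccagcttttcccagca

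The match in Ddx58 begins 2 bases after the gene start, that in Rsad2 120 bases before it and those in Ifit3 156 and 122 bases before it. Of 48 measured interferon genes with a window, 21 (43.8%) held the element, beside 361 of 9644 measured genes (3.74%) and 1131 of all 32851 windows (3.44%). The 21 genes with it had a median of 0.44 in replicates 2+6 and -0.05 in replicate 3, and the 27 without it 0.23 and 0.16. A match is a description of these letters and not of binding.

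**Figure D3:**
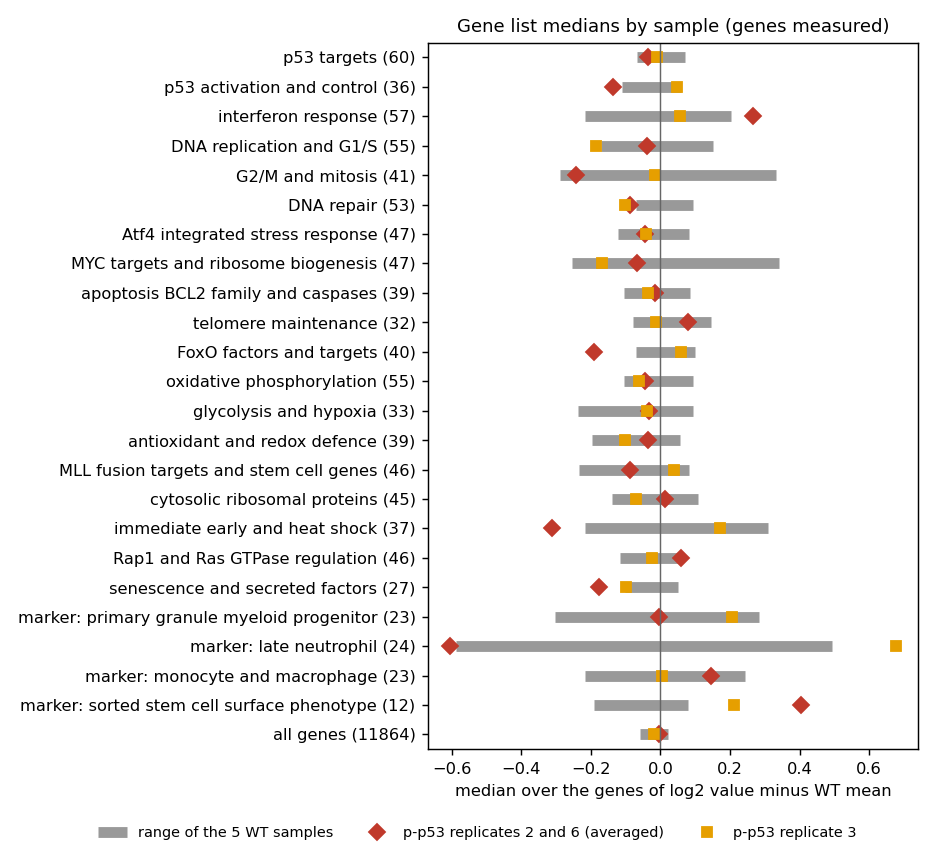
Median over each gene list of the log2 value minus the WT mean (x axis), with 1 row per list and the number of genes measured in brackets; the grey bar spans the 5 WT samples, each set against the mean of the other WT samples, the red diamond is p-p53 replicates 2 and 6 averaged and the orange square replicate 3. The late neutrophil markers lie at -0.60 and 0.68, and the surface molecules, of which only some were used in the sort, at 0.41 and 0.21. The dendritic, eosinophil, B cell, T and NK cell, erythroid, mast cell, megakaryocyte and stromal marker lists are not drawn.

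Replication and mitosis genes were lower in most members, each by little. Of 55 measured DNA replication and G1/S genes, 11 were higher and 44 lower, with a median difference of -0.14. At an unadjusted p under 0.05, 2 were lower (Cdc45 and Gins3) and none was higher, or 3.64%, beside 2.62% of all genes. Both p-p53 samples lay below all WT samples in 7, or 12.7%, beside 4.34% of all genes. The list median was -0.04 in replicates 2+6 and -0.19 in replicate 3, against a WT span of -0.17 to 0.15. It was -0.41 and -0.03 in p-Foxo3a replicates 1 and 4 and -0.23 in Terc-/- replicate 5. Replicate 3 lay below all WT samples in 20 of the 55 and replicates 2+6 in 11, beside 19% and 17.6% of all genes.

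Gins3, a subunit of the GINS complex of the replicative helicase, read 8.27, 8.84, 8.77, 8.62 and 8.56 in WT samples and 8.05 and 8.21 in p-p53 samples, a difference of -0.48 ± 0.17 (SE). Lig1, the ligase that joins Okazaki fragments, read 11.28 and 11.17 against 11.37 to 11.78, and its 3 other kept probes differed by between -0.43 and -0.05. Mcm7, a helicase subunit, read 11.03 and 10.99 against 11.10 to 11.59. In Gins3, Lig1 and Mcm7 both p-p53 samples lay just below the WT range. The other kept Mcm7 probe read 10.70 and 10.40, within its WT range. Mcm7 was chosen after its values were seen. Gins3 lay below the WT range in the p-Foxo3a samples (7.78 and 8.14) and Terc-/- replicate 5 (8.08) too. So did Lig1, at 10.92, 11.21 and 11.12. Of those samples, Mcm7 was below its WT range in p-Foxo3a replicate 1 only.

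Of 41 G2/M and mitosis genes, 6 were higher and 35 lower, with a median of -0.08. It came from replicates 2+6 (-0.24) more than from replicate 3 (-0.01), both within the WT span of -0.29 to 0.33. The list median was -0.85 and -0.26 in p-Foxo3a replicates 1 and 4 and -0.20 in Terc-/- replicate 5. Smc4, a subunit of condensin, read 8.64 and 8.63 against 8.79 to 9.32, a difference of -0.39 ± 0.17 (SE), and its other kept probes differed by -0.12 and 0.12. Ndc80, a kinetochore protein that holds microtubules, read 9.82 and 10.07 against 10.16 to 10.57, and its other, dim kept probe differed by -0.100. Smc4 lay below the WT range in the p-Foxo3a samples (8.20 and 8.61) and Terc-/- replicate 5 (8.53) too. So did Ndc80, at 9.34, 10.005 and 9.996. Of 53 DNA repair genes, 16 were higher and 37 lower, with a median of -0.08. The p-p53 samples had repair list medians of -0.09 and -0.10, both below the WT span of -0.07 to 0.09. Those of p-Foxo3a replicates 1 and 4 were -0.18 and -0.05, and that of Terc-/- replicate 5 was -0.17.

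Promoters of replication genes are often bound by E2F factors, searched here as TTTCCCGC or TTTGGCGC on both strands. Of 45 measured replication genes with a window, 13 (28.9%) held either, beside 300 of the measured genes (3.11%) and 514 of all windows (1.56%). Their median difference was -0.16, and that of the 32 without was -0.14. The CHR element of mitotic promoters, TTTGAA, was in 24 of 33 G2/M windows (72.7%), beside 1461 of the measured genes (15.15%) and 5878 of all windows (17.89%). The 24 with it had a median difference of -0.11 and the 9 without it -0.07. The Gins3 window is shown because Gins3 was lower in both p-p53 samples, and its match, on the opposite strand in capitals, begins 41 bases before the gene start.
Gins3 (chr8:95633309-95633608, plus strand): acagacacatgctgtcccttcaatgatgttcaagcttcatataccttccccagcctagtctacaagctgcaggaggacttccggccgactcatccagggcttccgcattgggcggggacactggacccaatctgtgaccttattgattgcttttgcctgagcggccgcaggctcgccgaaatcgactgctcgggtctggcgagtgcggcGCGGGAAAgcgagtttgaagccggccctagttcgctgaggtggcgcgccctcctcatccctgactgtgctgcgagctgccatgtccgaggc

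Of 47 measured genes of the integrated stress response, in which Atf4 induces amino acid synthesis and transport, 15 were higher and 32 lower, with a median of -0.08. The list median was -0.05 in replicates 2+6 and -0.04 in replicate 3, both within the WT span of -0.12 to 0.08. Both p-p53 samples lay below all WT samples in 2 members, or 4.26%, beside 4.34% of all genes. At an unadjusted p under 0.05, Mthfd2 and Atf5 were lower and none was higher, or 4.26%, beside 2.62% of all genes. Mthfd2, a mitochondrial enzyme of folate metabolism, read 11.65, 11.24, 11.60, 11.34 and 11.22 in WT samples and 10.31 and 10.77 in p-p53 samples, a difference of -0.87 ± 0.26 (SE), and its other probe again differed by -0.87. Neither p-p53 sample overlaps WT, and replicates 2+6 are the lower. Atf5, a transcription factor induced by Atf4, read 9.21 and 9.42 against 9.52 to 10.02, a difference of -0.50 ± 0.16 (SE). It was below the WT range in the p-Foxo3a samples too, at 9.16 and 9.47, and within it in Terc-/- replicate 5, at 9.80. Atf4 itself read 11.58 in replicates 2+6 and 12.59 in replicate 3, against 12.05 to 13.02.

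The Atf4 response element, searched as TGATGNAA on both strands, was in 14 of 40 measured list genes with a window (35%), beside 299 of the measured genes (3.1%) and 1304 of all windows (3.97%). Of the 14, 3 were higher and 11 lower, and of the 26 without it 9 were higher and 17 lower. Chac1, which degrades glutathione, and Asns, asparagine synthetase, are shown because the p-p53 samples differed in which of them was low. Chac1 read 6.68 in replicates 2+6 and 8.52 in replicate 3 against 8.23 to 9.13, and Asns 11.76 and 10.61 against 11.29 to 12.34. Asns was chosen after its values were seen. The match in Chac1 is on the opposite strand, 193 bases before the gene start, and that in Asns begins 23 bases before it.
Chac1 (chr2:119350992-119351291, plus strand): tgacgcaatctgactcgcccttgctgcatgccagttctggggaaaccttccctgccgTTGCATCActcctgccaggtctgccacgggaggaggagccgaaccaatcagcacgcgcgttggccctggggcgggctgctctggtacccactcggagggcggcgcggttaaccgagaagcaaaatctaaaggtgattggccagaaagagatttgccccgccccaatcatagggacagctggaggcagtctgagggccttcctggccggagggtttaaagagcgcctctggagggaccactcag
Asns (chr6:7693160-7693459, minus strand): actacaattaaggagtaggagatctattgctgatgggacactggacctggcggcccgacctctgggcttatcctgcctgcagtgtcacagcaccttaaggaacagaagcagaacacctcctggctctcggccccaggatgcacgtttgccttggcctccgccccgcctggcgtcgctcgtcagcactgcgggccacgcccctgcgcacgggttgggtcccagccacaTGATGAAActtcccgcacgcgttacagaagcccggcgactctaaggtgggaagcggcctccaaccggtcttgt

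A list of surface molecules had the highest median difference from WT of the 31 lists examined. It holds Kit and Fcgr genes, on which the cells were sorted. It also holds molecules not named in the sort, such as Csf2ra, Csf3r, Cd34 and Itgam. Of 12 measured (of 15 listed), 9 were higher and 3 lower, with a median of 0.17. Both p-p53 samples lay above all WT samples in 4, or 33.3%, beside 4.01% of all genes, and below them in none. The list median was 0.41 in replicates 2+6 and 0.21 in replicate 3, both above the WT span of -0.19 to 0.08. It was 0.11 and 0.12 in p-Foxo3a replicates 1 and 4, also above that span, and 0.05 in Terc-/- replicate 5, within it. The 12 genes summed to 48210 and 45680 linear units, against 35980 to 39010 in WT. The sort itself selected on Kit and Fcgr, and the place of the sort gate on each day is not given in the sources used here.

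Kit, the receptor of stem cell factor, read 12.46, 12.82, 12.48, 12.29 and 12.55 in WT samples and 13.09 and 13.03 in p-p53 samples, a difference of 0.54 ± 0.17 (SE). Its other kept probe differed by 0.24. Fcgr2b, an inhibitory receptor for IgG, read 12.32 and 11.84 against 11.51 to 11.70, a difference of 0.50 ± 0.15 (SE), and its 3 other kept probes differed by 0.13 to 0.31. Csf2ra, a chain of the GM-CSF receptor, read 12.52 and 12.31 against 11.77 to 12.14, a difference of 0.47 ± 0.13 (SE). Csf2ra lies on chromosome 19, where bright genes had a median of 0.16 in each p-p53 sample. Csf3r, the receptor of G-CSF, read 10.92 and 11.29 against 10.12 to 10.80. These 4, of which Csf3r was chosen after its values were seen, were higher in both p-p53 samples than in all WT samples, at adjusted p of 1. Csf2rb, the chain that GM-CSF shares with other cytokines and was picked here after its values were seen, read 8.49 in replicates 2+6 and 6.76 in replicate 3, on opposite sides of the WT range of 7.94 to 8.21. Its other kept probes read 7.77 and 6.75, and 6.97 and 6.74. Cd34, a stem cell sialomucin, lay within the WT range in both, at 7.23 and 7.80.

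Of 46 measured MLL fusion targets and stem cell genes, 21 were higher and 25 lower, with a median of -0.04. Hoxa9, a homeobox factor that MLL fusions maintain, read 9.92 and 10.27 in p-p53 samples against 10.03 to 11.04. Meis1, its partner, read 11.53 and 12.26 against 12.02 to 13.20, a difference of -0.68 ± 0.34 (SE), and its 2 other kept probes differed by -0.45 and -0.43. Replicates 2+6 lay below all WT samples for both genes, and replicate 3 within the WT range. Of 40 measured FoxO factors and targets, 14 were higher and 26 lower, and Foxo1, a FoxO factor active when Akt is not, read 6.56 and 6.69 against 6.77 to 7.54. The median of this list was -0.19 in replicates 2+6, below the WT span of -0.07 to 0.10, and 0.06 in replicate 3, within it. Replicates 2+6 lay below all WT samples in 14 of the 40, beside 17.6% of all genes.

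Granule genes of maturing neutrophils differed widely between the 2 p-p53 samples. Of 24 measured late neutrophil markers, 21 were lower than the WT mean in replicates 2+6 and 18 higher in replicate 3. Replicates 2+6 lay below all WT samples in 13 of them, beside 17.6% of all genes, and replicate 3 above all in 10, beside 15.3%. The list medians were -0.60 and 0.68 against a WT span of -0.59 to 0.49. Fcnb, a ficolin of myeloid granules, read 12.10, 14.82, 13.67, 14.02 and 14.51 in WT samples, 8.74 in replicates 2+6 and 15.18 in replicate 3. The p-p53 samples thus lie on opposite sides of all WT samples, 86.6-fold apart. Fcnb is counted in the primary granule list below and not among the 24 late neutrophil markers. Ngp, a neutrophil granule protein, read 10.36 and 15.67 against 13.04 to 14.94, a 39.6-fold gap. Ltf, the iron-binding lactotransferrin of secondary granules, read 7.05 and 12.07 against 8.50 to 11.21, though its other kept probe read only 6.49 and 7.37.

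Camp, the antimicrobial cathelicidin, was lowest in replicates 2+6, at 11.39 against 13.93 to 15.60 in WT and 15.49 in replicate 3. Chil1, a chitinase-like protein, read 6.64 and 11.58 against 7.47 to 9.30. Cebpe, the transcription factor that drives secondary granule genes, followed the same order, at 11.78 and 13.68 against 12.46 to 13.31. Of the brightest primary granule genes, Mpo read 15.72 and 15.59, Elane 15.83 and 15.84, Prtn3 15.74 and 15.76 and Ctsg 15.75 and 15.19. Over the 23 measured primary granule genes the medians were -0.0039 and 0.21, within the WT span of -0.30 to 0.28. The p-p53 samples lay on opposite sides of the WT range in 5 of them (21.7%), Fcnb included, beside 6.87% of all genes. Replicate 3 lay above all WT samples in 10 of the 23, beside 15.3%. Ccl9, a chemokine, was high in replicates 2+6 and within the WT range in replicate 3, at 14.70 and 11.32 against 10.95 to 13.54. F13a1, a coagulation factor of monocytes, read 14.31 and 12.39 against 10.85 to 13.69. The 23 monocyte markers as a list had medians of 0.15 and 0.0034, within the WT span of -0.22 to 0.24. Cebpe, Ccl9, F13a1, Elane, Prtn3 and Ctsg were chosen after their values were seen.

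**Figure D4:**
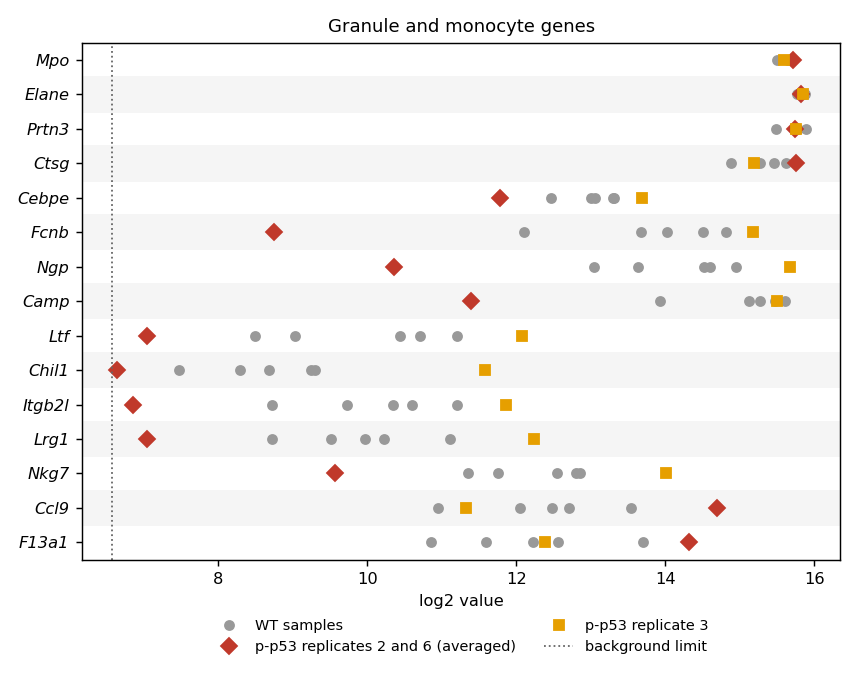
Log2 value (x axis) of granule and monocyte genes, with 1 row per gene; grey circles are the 5 WT samples, red diamonds p-p53 replicates 2 and 6 averaged, orange squares p-p53 replicate 3, and the dotted line is the background limit of 6.57. Rows from Fcnb to Nkg7 have the red diamond at the low end, and in the last 2 rows, Ccl9 and F13a1, it is at the high end.

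Immediate early and heat shock genes also split the p-p53 samples. Of 37 measured, 32 were below the WT mean in replicates 2+6 and 25 above it in replicate 3, with list medians of -0.31 and 0.17 against a WT span of -0.22 to 0.31. Fos, a transcription factor induced within minutes, read 10.80 and 12.95 against 10.92 to 13.62. Zfp36, which destabilises inflammatory mRNAs, read 10.72 and 12.81 against 11.68 to 13.18. Hspa1a, the inducible chaperone Hsp70, read 6.30 and 10.43, and the WT samples themselves ran from 6.51 to 11.22. Its other kept probe read only 6.40 and 6.68. Fos and Zfp36 were chosen after their values were seen.

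Several genes were bright in 1 p-p53 sample and at or near background in every other. Replicates 2+6 lay over 4-fold above all WT samples at 10 genes and over 4-fold below at 6. Replicate 3 did so at 2 and 3 genes. Otx1, a homeobox factor of the developing brain, read 13.80 in replicates 2+6 and 6.48 in replicate 3, against 6.47, 6.43, 6.58, 7.12 and 6.21 in WT. The next protein-coding gene along the chromosome, Ehbp1, read 8.94 in replicates 2+6 and 6.33 in replicate 3, against 6.38 to 6.64. Bmpr2, a receptor of bone morphogenetic proteins, read 12.32 and 6.84 against 7.35 to 8.21. Ica1l, which lies 2 protein-coding genes away, read 8.88 and 6.32 against 6.20 to 6.68. Fam117b, the gene between Bmpr2 and Ica1l, read 10.55 in replicates 2+6, against 9.68 to 10.44 in WT.

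Of the 12 genes so far above WT in 1 p-p53 sample, 4 (these 2 pairs) had another gene over 2-fold above WT in the same sample among the measured ones of the 4 nearest protein-coding genes on each side. In each pair both genes are among the 12, so each pair is counted from both ends. The share of all genes with such a neighbour was not computed. Camk2a, a calcium-dependent kinase, read 10.98 in replicates 2+6 and 6.85 in replicate 3, against 7.04 to 7.68. One other kept Camk2a probe read 9.55 and 6.65, and another 6.65 and 6.57. Dsg2, a desmosomal cadherin, read 10.26 and 6.35 against 6.37 to 6.92, and its other kept probe 7.83 and 6.82. In replicate 3 the like gene was Pcdh7, a protocadherin, at 9.69 against 6.30 to 6.80 in WT and 6.42 in replicates 2+6, though its other kept probe read 6.55 and 6.78. Ces1d, a carboxylesterase, was low in replicate 3, at 7.48 against 10.11 to 12.98 in WT and 13.01 in replicates 2+6. Dsg2, Ehbp1, Ica1l and Fam117b were chosen after their values were seen.

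**Figure D5:**
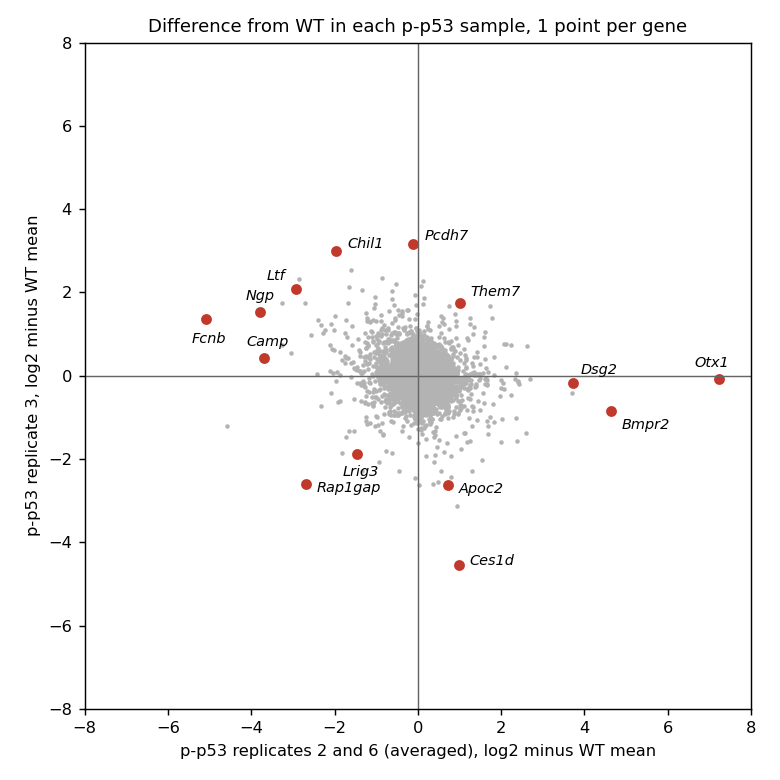
Log2 value minus the WT mean in p-p53 replicates 2 and 6 averaged (x axis) and in p-p53 replicate 3 (y axis), with 1 point for each of 11864 genes and named genes in red. Rap1gap and Lrig3 are low on both axes, Them7 is high on both, Otx1 and Bmpr2 lie furthest to the right, near the x axis, and Fcnb, Ngp and Ltf lie at the upper left.

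The p-p53 samples were set against the p-Foxo3a samples, in the same fit and so with the same p-p53 samples, to see where they differ from other Terc-/- leukaemias. No gene passed (limma, adjusted p under 0.05): 0% of 11864, while 607 had an unadjusted p under 0.05. One p-Foxo3a library stood apart: over bright genes, replicate 1 had a median of 0.39 on chromosome 6, 0.42 on chromosome 16 and -0.21 on chromosome 2, all outside the WT span there, and replicate 4 lay within the WT span on all 20 chromosomes examined. The smallest adjusted p was 0.594, for Rap1gap and Them7. Them7 read 6.95 and 6.43 in p-Foxo3a samples, a difference of 1.95 ± 0.27 (SE) from p-p53. Without p-Foxo3a replicate 4, 29 genes passed, without its replicate 1, 1 gene, without p-p53 replicate 3, 12 genes and without p-p53 replicates 2+6, 1 gene.

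Kcnq5, a potassium channel, read 6.83 and 7.19 in p-p53 samples and 8.24 and 8.62 in p-Foxo3a samples, where WT samples lay between 6.29 and 7.08. Acp2, a lysosomal phosphatase, read 9.66 and 9.46 against 8.51 and 8.89, and Plcb2, a phospholipase of blood cells, 11.39 and 11.61 against 10.43 and 10.86. Both genes lie on chromosome 2, and in both the p-p53 samples were near WT, which lay between 9.25 and 9.63 and between 11.41 and 11.58. Some of the 24 genes of smallest p and Phlda3 lay outside the WT range in the p-Foxo3a samples too. Cdc45 read 10.66 and 10.69 there, H1f10 7.76 and 7.69, Phlda3 7.84 and 7.68 and Rab26os, an antisense RNA among the 24, 10.85 and 10.97. In Terc-/- replicate 5, Cdc45 read 10.59 and Phlda3 7.60, outside the WT range, and H1f10 7.26 and Rab26os 10.50, not above it. Rab26os read 10.81 and 10.92 in p-p53 samples and 10.19 to 10.50 in WT, and whether its probe reads its own strand was not tested.

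Along the genome, medians over bright genes of each chromosome stayed close to WT in the p-p53 samples. On chromosome 19, where WT samples themselves spread most widely, 249 genes had a median of 0.16 in each p-p53 sample, within the span of the WT samples, -0.22 to 0.24. Csf2ra, Rasgrp2, Ms4a3 and Mpeg1, all higher in both p-p53 samples, lie on chromosome 19. The part of this chromosome-wide median in their differences was not tested. On the other 19 chromosomes the p-p53 medians lay between -0.07 and 0.04.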

How the data were processed

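RNA of sorted mouse leukaemia stem cells was hybridised to 12 Illumina bead arrays. The authors deposited log2 values of 38502 probes, normalized between arrays by a method not given in the sources used here. That the scale is log2 was read from the values, and per the submitters' processing notes GenomeStudio was used. A second deposited table, of values not normalized, has 24 columns that match no sample label and was not used. Deposited values keep the background, so folds of dim genes are understated, and the number of arrays limits precision.

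A background limit of 6.57 was set from the mode (6.35) and spread (0.13) of dim values at a tail p of 0.05. Probes above it on at least 3 of 12 arrays were kept (21861), and the brightest kept probe stood for a gene. Of all probes, 32034 had 1 gene, 16 several and 6452 were not listed; 31976 were matched to the RefSeq gene table (GRCm38.p6). Differences were tested with limma 3.58.1 in R 4.3.3 (lmFit and eBayes, 2-sided, Benjamini-Hochberg over 11864 genes) in 1 fit of 9 samples, tested first on simulated data. Promoters are RefSeq windows of 250 bases before to 50 after the gene start.

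Genes named in the text are the 24 of smallest p, preset pathway genes, the 3 of smallest p in each list, the 12 of largest difference outside the WT range, the 12 furthest apart between the p-p53 samples, the 6 of smallest p against p-Foxo3a, and genes with a bound of at least 2-fold; others are said to be chosen after their values were seen. The members, lists and tests were chosen with earlier results of these data known. Alternatives covered arrays counted singly, the replicate block, the samples fitted, a trend, filters, probe choice, centring, background subtraction and each replicate left out.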

Additional observations from a re-analysis of the deposited data

Results flagged for a closer look

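In 8 of 178 genes and lists examined (4.49%), 1 WT sample lay far from the other 4 by Dixon's criterion, and chance alone gives about 1 in 20. WT replicate 4 was low for Ms4a3, at 11.09 against 13.57 to 14.35 in the others, high for Dsg2, at 6.916 against 6.374 to 6.513, and low for Ifit3, at 6.702 against 6.869 to 6.919. WT replicate 1 was low for Camp, at 13.93 against 15.12 to 15.6, for Ces1d, at 10.11 against 12.22 to 12.98, and for Mpo, at 15.49 against 15.65 to 15.7. WT replicate 3 was high for Hspa1a, at 11.22 against 6.507 to 7.793. WT replicate 2 was high for Rfc4, a clamp loader subunit, at 11.11 against 10.39 to 10.54.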

How the results depend on the processing

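With all arrays counted singly, 1 gene (Rap1gap, limma adjusted p of 0.0265) passed against WT, which counts near-identical arrays as independent. Leaving out each replicate gave 0 to 15 genes against WT and 0 to 29 against p-Foxo3a. At an unadjusted p under 0.05 there were 311 genes, and 1057 with arrays counted singly, 517 without a filter on dim probes, 504 with every probe tested, and 230 to 669 with a replicate left out (669 without p-p53 replicate 3). With the replicate number as a block, no gene passed and 931 had an unadjusted p under 0.05. The deviations of same-numbered samples from their group means correlated at -0.09, -0.23 and -0.07. With p-p53 replicates 2 and 6 near-identical, these values are not independent. They cannot decide whether the numbers pair samples. The median of surface genes ran from 0.12 to 0.41 with a replicate left out, the highest without p-p53 replicate 3, and that of late neutrophil markers from -0.60 to 0.68, the highest without p-p53 replicates 2+6. Another probe reversed the direction for Smc4 (0.12), Pml (-0.086), Pinx1 (0.057), Rap1gap (0.0041) and Trp53inp1 (-0.030); the cause was not tested. Under the other settings the median of interferon genes stayed between 0.12 and 0.23 and that of replication genes between -0.14 and -0.12. With 2 p-p53 samples, a difference present in 1 of them cannot be assigned to the group.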

Other observations

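The other gene groups given here had list medians within the WT span in each p-p53 sample. Of 47 measured MYC targets and ribosome biogenesis genes, 12 were higher and 35 lower, with a median of -0.12, beside -0.01 over all genes, and 2 (4.26%) lay below all WT samples in both p-p53 samples, close to the 4.34% of all genes. Of 55 oxidative phosphorylation genes, 15 were higher and 40 lower, with a median of -0.05. Replicate 3 lay below all WT samples in 13 of the 47 and 16 of the 55, beside 19% of all genes. Replicates 2+6 did so in 6 and 8, beside 17.6%. Of 39 genes of the BCL2 and caspase families, which control apoptosis, 19 were higher and 20 lower.

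Xist, the RNA that silences an X chromosome, was chosen after its values were seen and read 13.01 in p-p53 replicates 2+6 and 8.93 in replicate 3, against 10.02 to 13.55 in WT.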
